A study of Mus musculus with 2 samples.

Results

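CTCF regions of unusual width were examined in a ChIP-seq map of double-negative (DN) thymocytes. A region was a run of touching 25-bp bins listed as CTCF peaks, and the regions described here were those wider than 700 bp on chromosomes 1 to 19 of the mm9 mouse genome. They numbered 1777 of 52254 autosomal regions and of 53551 regions in all. That share was 3.40% of the autosomal regions (exact 95% interval 3.25 to 3.56%). They held 7.71% of the covered length, or 1555 kb. They were chosen by their width alone, so widths are given as a description and nothing is tested with them.

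The cells came from thymi of C57BL/6 mice that were Rag1 -/- and 4 to 8 weeks old. These mice cannot rearrange antigen receptor genes, so their thymocytes stop at the CD4-CD8- (DN) stage. From such cells there were 2 libraries per the labels, 1 precipitated with an antibody against CTCF and 1 input control, both from chromatin fixed with 1% formaldehyde for 10 minutes. Only the CTCF library was used here, there was no replicate, and the number of animals pooled is not given in the sources used here. The labelled cell type could not be checked against marker genes, since the file holds positions alone.

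CTCF is a DNA-binding protein with many zinc fingers that can block the spread of enhancer activity and helps to hold the ends of chromatin loops together. Most of its sites hold a single copy of a long sequence motif, and some hold several copies side by side. In ChIP-seq the width of a listed region is set by the length of the DNA fragments, by the number and spacing of bound sites and by the strength of the signal over the calling threshold. The libraries were cut from a gel at about 200 to 250 bases. The track lists no height or read count, so strength and number of sites could not be separated, and the depth is unknown. Intervals below are exact 95% intervals that cover counting error only. They treat regions as independent, which regions near each other are not, so they can be too narrow. Sequences under these regions were not analysed here.

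Most of the very wide regions exceeded the limit by little. The quartiles of their widths were 750, 825 and 925 bp, and 1490 of them (83.8%) were 1000 bp or narrower. The most frequent width was 725 bp, with 330 regions, just inside the limit. Just outside it, 498 regions measured 700 bp. The number of autosomal regions per width fell without a break through the limit, from 4569 at 600 bp, the most frequent width of all, to 2172 at 650 bp, 498 at 700 bp, 207 at 750 bp and 147 at 775 bp. It then stayed nearly level at 160, 143 and 133 regions for 800, 825 and 850 bp, before falling again to 73 at 900 bp and 29 at 1000 bp.

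There was no separate maximum at 1200 or 1800 bp, the widths that 2 or 3 regions of 600 bp laid end to end would give. At 1175, 1200 and 1225 bp the track held 16, 16 and 20 regions, and 90 regions lay within 50 bp of 1200 bp. Counts were level at 29 regions for each width from 1000 to 1075 bp and at 16 to 25 from 1100 to 1225 bp. Within 50 bp of 1800 bp there was 1 region. Regions wider than 1200 bp numbered 98, those wider than 1500 bp numbered 12, and those wider than 1800 bp numbered 4.

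**Figure D1:**
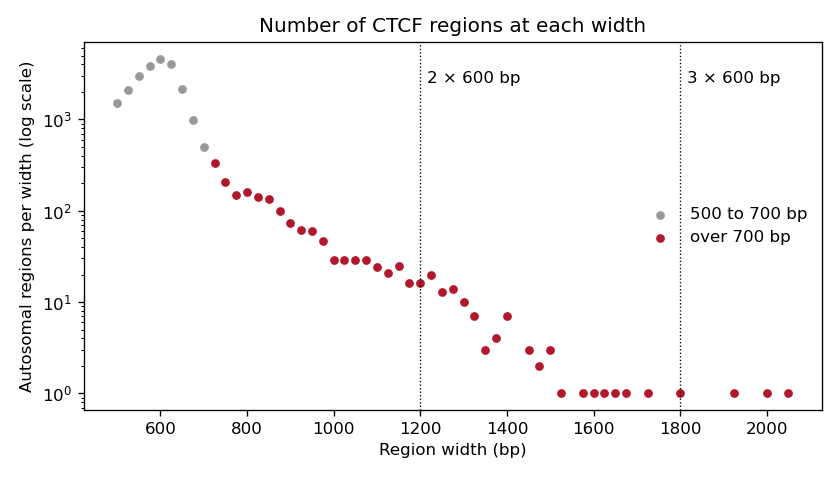
Number of autosomal CTCF regions at each width in steps of 25 bp, from 500 to 2050 bp, on a log scale; grey points are regions up to 700 bp, red points are wider ones, and dotted lines mark 2 and 3 times 600 bp. The counts fall through 700 bp, level near 800 bp and again near 1000 bp, and show no separate maximum at 1200 bp (16 regions) or 1800 bp (1 region). The region of 6300 bp lies beyond the axis.

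The widths were then set beside regions that lay close together but were listed separately. Among autosomal neighbours that both measured 500 to 700 bp, 1231 pairs had a gap of up to 2000 bp. Their number was nearly constant with distance, 49 to 81 pairs per 100 bp of gap with a median of 59.5. If a wide region held a pair of sites that each gave 600 bp, the distance between the sites would be its width minus 600 bp. On that scale 844 wide regions fell over 100 and up to 200 bp, 448 in the next 100 bp, then 198, 111, 78 and 57. The last count, for widths of 1225 to 1300 bp, stood beside 55 separate pairs with centres over 600 and up to 700 bp apart. In each of the next 100-bp steps up to 2000 bp there were 54 to 76 separate pairs, while wide regions dropped to 21 and then 8. Separate regions of 500 to 700 bp cannot have centres closer than their own widths allow. There were 0 such pairs over 400 and up to 500 bp apart, and 5 in the next 100 bp. Where the counts met was thus partly set by this floor and by the subtraction of 600 bp. At widths of 1125 to 1300 bp, wide regions were about as frequent per 100 bp as separate pairs were at longer distances. At 725 to 800 bp they were more than 10 times as frequent. The subtraction of 600 bp is an assumption made after the widths were seen, and how many sites each region held was not tested.

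**Figure D2:**
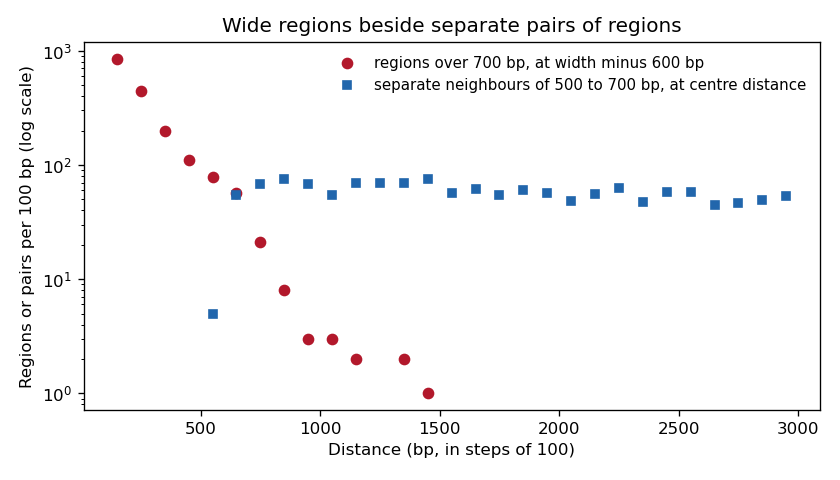
Counts per 100 bp on a log scale of autosomal regions over 700 bp, placed at their width minus 600 bp (red), and of separate neighbouring regions of 500 to 700 bp, placed at the distance between their centres (blue). Red counts fall from 844 to 57 and meet the blue counts, 55 pairs, at 600 to 700 bp. Beyond 700 bp the blue counts stay between 45 and 76 while the red ones fall to 3 or fewer. The meeting place is partly set by construction, since separate regions of 500 to 700 bp cannot have closer centres than their widths allow.

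Single missing bins also bore on the count of wide regions. A gap of exactly 1 bin, 25 bp, separated 80 of the 1777 wide regions (4.50%) from another region, against 503 of 22663 regions of 500 to 700 bp (2.22%). Bridging gaps of 25 bp gave 1962 wide regions, of which 186 were made from pieces that were each 700 bp or narrower. In 164 of these 186, only 1 piece measured 500 bp or more, and in 17 at least 2 pieces did. Bridging up to 200 bp gave 2898, of which 1126 were made from narrower pieces. Of those 1126, 909 held 1 piece of 500 bp or more with smaller fragments, 145 held 2 or more, and 72 held none. The number within 50 bp of 1200 bp rose from 90 to 184 under this joining.

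Wide regions had close neighbours more often than regions of 500 to 700 bp. Of the wide regions, 72.8% (70.7 to 74.9%) had another region within 10 kb, compared with 61.1% (60.5 to 61.7%) of the 22663 regions of 500 to 700 bp. Within 1 kb the shares were 28.5% (26.4 to 30.6%) and 17.2% (16.7 to 17.7%). Within 200 bp they were 15.0% (13.3 to 16.7%) and 7.05% (6.72 to 7.39%). The median gap to the nearest region was 3.68 kb (3.30 to 4.10 kb) for wide regions and 6.48 kb (6.30 to 6.65 kb) for the comparison class. Neighbours on both sides within 10 kb were found for 428 wide regions (24.1%) and 17.1% of the comparison class. A wide region can already have taken in what would otherwise count as its neighbour, so the closest distances are not free of the rule on width.

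The excess of neighbours was also present without fragments next to the region. With every region that had another within 200 bp left out of both classes, the shares within 10 kb were 68.0% (65.6 to 70.4%) and 58.2%. The share was also higher for wide regions on 19 of 19 autosomes. By width of the wide regions, the share was 74.8% (71.7 to 77.7%) at 725 to 800 bp and 69.97% (66.3 to 73.5%) at 825 to 1000 bp. It was 72.5% (65.5 to 78.7%) at 1025 to 1200 bp and 75.5% (65.8 to 83.6%) of the 98 regions over 1200 bp. The intervals of these width classes all overlapped. Regions just outside the limit were already above the 61.1% of their class. Those of 650, 675 and 700 bp stood at 70.1% (68.1 to 72.0%), 72.1% (69.2 to 74.9%) and 70.3% (66.1 to 74.3%). Just inside it, regions of 725, 750 and 775 bp stood at 76.4% (71.4 to 80.8%), 73.4% (66.9 to 79.3%) and 80.3% (72.9 to 86.4%). The intervals at 700 and 725 bp overlapped, whereas that at 775 bp lay above that at 650 bp. The interval at 825 to 1000 bp, however, included the shares at 650, 675 and 700 bp. A step up at the limit that holds for all wider regions was thus not seen.

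**Figure D3:**
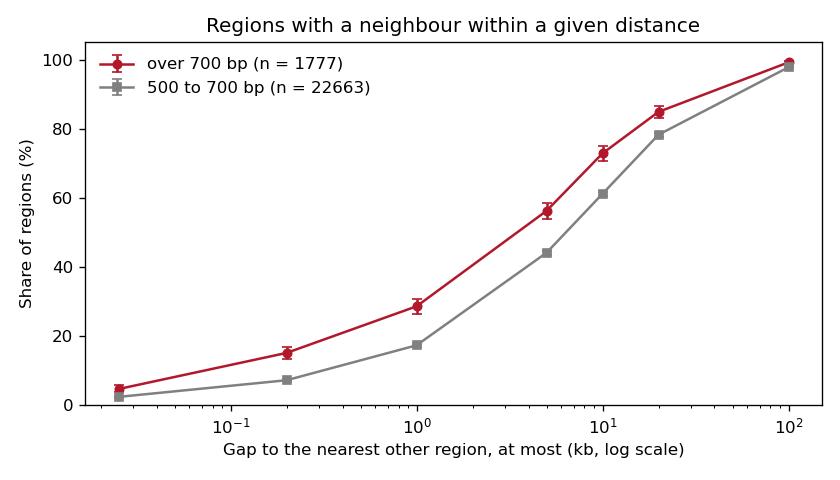
Share of regions whose nearest other region lies within a given gap (log scale, 0.025 to 100 kb), for the 1777 autosomal regions over 700 bp (red) and the 22663 of 500 to 700 bp (grey); bars are exact 95% intervals. The red line lies above the grey one at each distance drawn, by the most between 1 and 10 kb, for example 72.8% against 61.1% at 10 kb. Regions narrower than 500 bp are not drawn, and of those up to 100 bp 74.7% had another region within 10 kb.

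The nearest region was mostly a small fragment when it lay very close, and most often one of 500 to 700 bp, though in under 50% of cases, when it lay farther off. Of the 266 wide regions with a neighbour within 200 bp, 186 (69.9%, 64.0 to 75.4%) had one of 100 bp or less beside them, and 6 had another wide region. For the class of 500 to 700 bp the share with such a fragment was 59.6% (57.2 to 62.0%). At gaps over 200 bp and up to 10 kb, the nearest region of a wide one measured 500 to 700 bp in 47.7% of 1028 cases and 100 bp or less in 19.7%. The comparison class gave 49.3% and 17.8%, and these intervals overlapped with those of the wide regions.

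Wide regions stood in parts of the chromosomes that were dense in CTCF regions. The median number of other regions within 500 kb on either side was 42 (41 to 43, n = 1777) for wide regions and 35 (35 to 35, n = 22663) for regions of 500 to 700 bp. The median was higher for wide regions on 19 of 19 autosomes, by 0.5 regions on chromosome 16 up to 13 regions on chromosome 8. Counting only neighbours of 500 bp or more gave 21 (20 to 21) and 17 (16 to 17). The single counts overlapped widely, with quartiles of 28 and 61 for wide regions and of 22 and 52 for the others. Regions near each other share most of their surroundings, so these counts are not independent and the intervals of the medians are too narrow.

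Density rose with width from 575 to 675 bp, below the limit, and was then nearly level up to 1200 bp. Regions narrower than 500 bp had a median of 34 (34 to 34, n = 27814), slightly above the narrowest of the class of 500 to 700 bp. In that class the median was 32 or 33 at each width from 500 to 575 bp, 35 at 600 bp, 38 at 625 bp, 40 at 650 bp and 42 at both 675 and 700 bp. Among the wide regions it was 42 (40 to 43) at 725 to 800 bp, 42 (40 to 44) at 825 to 1000 bp and 41 (37 to 49) at 1025 to 1200 bp. The 98 regions over 1200 bp had a median of 52.5 (44 to 58). Their interval lay just above that of the regions of 725 to 800 bp and overlapped that of the regions of 1025 to 1200 bp.

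**Figure D4:**
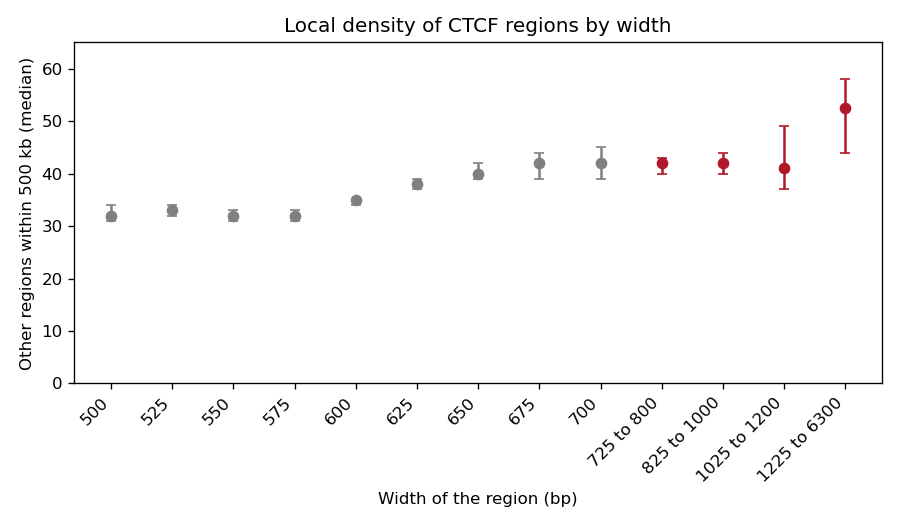
Median number of other autosomal CTCF regions within 500 kb on either side, for regions of each width from 500 to 700 bp (grey) and for 4 classes of wider regions (red), with narrower regions (median 34) not drawn; bars are exact 95% intervals of the median. The median rises from 32 at 575 bp to 42 at 675 bp, stays near 42 up to 1200 bp and is 52.5 for the 98 regions over 1200 bp.

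Viewed the other way, denser surroundings held a larger share of very wide regions. When autosomal regions were split into 5 classes of similar size by the number of others within 500 kb, 2.02% (1.76 to 2.30%) of regions in the sparsest class (0 to 19 others) were wider than 700 bp. The share was 2.65%, 3.44% and 3.87% in the following classes and 5.14% (4.72 to 5.60%) in the densest (58 to 116 others). Regions of 500 bp or more changed less, from 42.7% in the sparsest class to 48.9% in the densest. Among these, the wide share went from 4.73% (4.14 to 5.39%) to 10.5% (9.67 to 11.4%). Of the 98 regions over 1200 bp, 40 lay in the densest class and 7 in the sparsest. Within each of the 5 classes a close neighbour was still more frequent for wide regions than for those of 500 to 700 bp, for example 63.4% (57.4 to 69.2%) against 53.2% (51.7 to 54.7%) in the second sparsest and 84.9% (81.5 to 87.9%) against 78.9% (77.7 to 80.1%) in the densest. In the second densest the intervals overlapped, 70.4 to 79.2% for wide regions and 69.0 to 71.7% for the others.

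Very wide regions were unevenly shared among the autosomes. Chromosome 19 had 48.1 per 1000 regions (38.2 to 59.8, 77 wide regions) and chromosome 10 had 43.1 (35.8 to 51.5, 116 wide regions). The lowest values were 24.0 (17.3 to 32.3, 42 wide regions) on chromosome 16 and 24.4 (18.3 to 31.8, 53 wide regions) on chromosome 13. The highest value was 2.01 times the lowest, and their intervals did not overlap. These chromosomes were picked as the extremes, so their distance is large by choice, and unevenness over all autosomes was not tested. For most chromosomes between the extremes the intervals included the value of 34.0 for all autosomes. Median widths of the wide regions ranged only from 775 bp on chromosomes 13 and 16 to 850 bp on chromosomes 2 and 17.

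Chromosomes with more CTCF regions per Mb also had a larger share of very wide ones. Across the 19 autosomes Pearson's r was 0.61 and Spearman's rho 0.69, and r was 0.62 without the 2 chromosomes farthest from the median density. Against protein-coding genes per Mb of the same span the values were 0.65 and 0.73, and r was 0.70 without the 2 farthest. These are descriptions of 1 library over chromosomes, which are not replicates, and the number of regions enters both measures of the first relation. Chromosome 11, the densest with 33.9 regions per Mb, had 37.0 wide regions per 1000, below chromosomes 19, 10, 15, 7, 2 and 9. Along the chromosomes, the last 10% of the span held 16.9% of the wide regions and 14.6% of all regions, and 3.95% (3.53 to 4.41%) of its regions were wide. In the other stretches of 10% that share ran from 2.77 to 3.69%. Their intervals overlapped that of the last stretch, except for the lowest, 2.77% (2.32 to 3.28%).

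**Figure D5:**
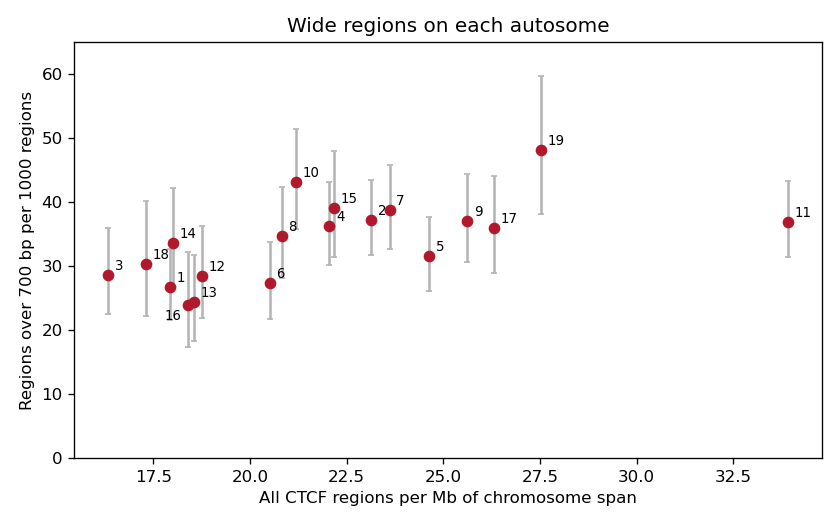
Regions over 700 bp per 1000 CTCF regions on each autosome (numbered points, exact 95% intervals), against the number of all CTCF regions per Mb of the stretch that holds regions. Chromosomes 19 (48.1) and 10 (43.1) are highest, chromosomes 16 (24.0) and 13 (24.4) lowest, and the densest chromosome, 11, is at 37.0.

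Many very wide regions lay near others of their kind. Another wide region was found within 100 kb of 671 of them (37.8%, 35.5 to 40.1%) and within 10 kb of 113 (6.36%, 5.27 to 7.60%). The median gap to the nearest wide region was 167 kb (152 to 184 kb), and 256 (14.4%) had none within 1 Mb. The matching values for regions of 500 to 700 bp are not given here, so these values alone do not show an excess. Of the regions next to a wide one, over 200 bp and up to 100 kb away, 5.44% (4.67 to 6.30%, 168 of 3089) were themselves wide. Next to regions of 500 to 700 bp the share was 3.74% (3.56 to 3.93%, 1483 of 39618). Where wide regions were next to each other, the pair entered the 168 from both sides. The interval of the 5.44% takes these as separate counts and is therefore too narrow. Split by local density, the share was higher beside wide regions in each of the 5 classes, but the intervals overlapped in each: 3.58% (1.80 to 6.32%) against 2.62% (2.23 to 3.05%) in the sparsest and 6.28% (4.81 to 8.05%) against 5.19% (4.72 to 5.69%) in the densest. The difference within the classes was not tested.

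By windows of 1 Mb, 917 of the 2323 autosomal windows with a CTCF region held a wide one, and 498 of these held exactly 1. The 63 windows with 5 or more held 382 wide regions, 21.5% of the total, beside 7.92% of all regions. The highest number was 12 of 90 regions (13.3%, 7.08 to 22.1%) at 53 to 54 Mb on chromosome 14. Chromosome 10 followed with 11 of 98 (11.2%) at 79 to 80 Mb and 11 of 110 (10.0%) at 80 to 81 Mb, and chromosome 11 with 10 of 64 (15.6%) at 96 to 97 Mb. These windows were picked as the maxima, so their shares are high by choice.

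The tightest group held 5 wide regions within 37.3 kb on chromosome 12, from 114425636 to 114462885. No other stretch of up to 100 kb held as many, and 11 further stretches held 4. Its wide regions measured 750, 1275, 1225, 1350 and 800 bp. The last 4 of these lay close together, from 114455311 to 114462885, with a region of 625 bp at 114459311 between the 1225-bp and the 1350-bp one. The gaps on either side of that 625-bp region were 150 and 175 bp. Of the 98 autosomal regions over 1200 bp, 3 stood in this place. Chromosome 12 carries the immunoglobulin heavy chain locus, but the position of the group relative to genes was not analysed here.

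On chromosome 14, the window with most wide regions contained a pair of groups of 4 that followed nearly the same layout. The groups began at 53591520 and 53902570, 311 kb apart. In the first group the wide regions measured 825, 775, 1150 and 1075 bp, and in the second they measured 925, 800, 1175 and 1100 bp. Counted from the first wide region of each group, the second wide region began at 10.85 and 10.93 kb and the third at 35.35 and 35.48 kb. Regions of 625 and 650 bp at 17.98 and 18.08 kb, of 575 and 625 bp at 29.35 and 29.45 kb, and of 700 bp in both at -9.95 and -9.88 kb completed the match. From 15 kb before to 70 kb after these starts, 6 of the 9 regions of 500 bp or more in the first stretch had a counterpart within 200 bp of the same offset among the 10 of the second. The fourth wide region broke the layout, at 57.83 kb in the first group and 50.98 kb in the second. Chromosome 14 carries Tcra and Tcrd, the genes of the T cell receptor alpha and delta chains; gene positions were not compared with the groups. A group on chromosome 11 (94647421 to 94732170) had the same 4 widths in the same order as the second group, but at offsets of 32.7, 79.9 and 83.7 kb.

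The widest region stood apart from all others in size and lay in sparse surroundings. It ran over 6300 bp, or 252 bins without a gap, at chr17:39979702-39986001, and was 3.07 times as wide as the next. In the mm9 assembly this place holds a copy of the 45S ribosomal RNA gene, the precursor of the 18S, 5.8S and 28S RNAs of the ribosome. Such genes are present in the mouse in long tandem arrays that the assembly mostly leaves out, so that reads from many copies can be placed on a single one. The RefSeq table for the later GRCm38 build lists a related sequence, Rn18s-rs5, as a pseudogene on chromosome 17. Around the region CTCF sites were sparse. The neighbouring regions lay 221 kb before it (50 bp wide) and 54.2 kb after it (100 bp wide), and 3 others were found within 500 kb. Only 1.49% of autosomal regions had 3 or fewer others at that distance. The nearest other wide region was 2592 kb away. The input library was not used, so piled-up reads and CTCF binding cannot be told apart here.

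The next 9 were of the same order as each other and most had close neighbours. They had a median of 58 other regions within 500 kb, from 20 to 73, and 8 of the 9 had a region within 10 kb. The second widest, 2050 bp at chr6:70754371-70756420, lay between regions of 650 bp, 6.05 kb before it, and 575 bp, 5.30 kb after it, and had 34 others within 500 kb, none of them wide. The third, 2000 bp at chr2:147003224-147005223, had a region of 250 bp 6.55 kb before it and 20 others within 500 kb. The fourth, 1925 bp at chr4:132978611-132980535, had one of 625 bp 2.60 kb before it, 73 others within 500 kb and 4 of those wide. Their surroundings thus ranged from sparse to among the densest.

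Ranks 5 to 8 all lay in the densest of the 5 classes of local density. The fifth widest, 1800 bp at chr2:164618549-164620348, had 69 others within 500 kb and a fragment of 100 bp just 175 bp after it. The sixth, 1725 bp at chr5:136520621-136522345, had 58 others, with gaps of 16.7 and 15.0 kb to the regions beside it. The seventh, 1675 bp at chr2:152656124-152657798, had 72 others, of which 6 were wide. The eighth, 1650 bp at chr9:107546776-107548425, had 13 others within 50 kb, the most of these 10, and its nearest wide region was 31.1 kb away. The ninth, 1625 bp at chr3:65733294-65734918, was sparse again, with 20 others within 500 kb and the nearest wide region 1642 kb away. The tenth, 1600 bp at chr6:114876271-114877870, had regions of 550 bp 3.08 kb before it and of 700 bp 425 bp after it, and 25 others within 500 kb. Genes at ranks 2 to 10 were not analysed here.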

How the data were processed

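CTCF ChIP-seq of DN thymocytes from Rag1 -/- mice was analysed from 1 library. The authors deposited a list of 825544 bins of 25 bp, with positions and no score or other value. Per the submitters' processing notes Bowtie and the mm9 build were used; how peaks were called, at which threshold and depth and with what role for the input is not given in the sources used here. Touching bins were joined into regions, and positions are given 1-based. Gaps are counted between edges and local density between centres. Intervals of shares are exact binomial (Clopper-Pearson) and those of medians are exact order-statistic intervals, both at 95%. With 1 library no test across samples was possible and none was run. Windows at chromosome ends were not corrected.

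The regions and the comparison class of 500 to 700 bp were chosen with earlier results of these data known. Regions named are the 10 widest, the widths next to the limit, the 2 highest and 2 lowest chromosomes and the tightest groups. The windows, the width minus 600 bp and the layout on chromosome 14 were chosen after values were seen. The gene table follows GRCm38, so only gene symbols, chromosomes and biotypes were taken from it. Joining and neighbour counts were tested on simulated data with known answers. Python 3.11.15, numpy 2.4.6, pandas 2.3.3, scipy 1.17.1 and matplotlib 3.10.9 were used. Alternatives changed the joining distance, the width limit and the neighbour distance.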

Additional observations from a re-analysis of the deposited data

Results flagged for a closer look

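Chromosome X, which the autosomal comparisons leave out, also held very wide regions by the same rule on width. There were 18 regions over 700 bp among its 1294, or 13.9 per 1000 (exact 95% interval 8.26 to 21.9), against 34.0 (32.5 to 35.6) on the autosomes. The widest measured 1175 bp, from 147551211 to 147552385. Of these 18, 5 (27.8%, 9.69 to 53.5%) had another region within 10 kb, compared with 40.9% (36.6 to 45.4%) of the 496 X regions of 500 to 700 bp. This order was the opposite of that on each autosome, but the intervals overlapped.

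The mitochondrial chromosome, outside every comparison, had 10 bins listed in 2 regions, the larger of 200 bp, and none over 700 bp. CTCF binding there cannot be told apart from background in the absence of the input.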

How the results depend on the processing

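Among 20 alternatives tried on 5 results, 6 stayed within the interval of the reported value or within 1.5 times its count, 14 moved and 0 reversed; most of them change the quantity counted. The 1777 wide regions became 2898 joined within 200 bp, 933 over 800 bp and 287 over 1000 bp. The 72.8% with a region within 10 kb became 56.2% within 5 kb, 84.9% within 20 kb, 66.8% joined within 200 bp and 68.0% without regions that had another within 200 bp. The 37.8% with another wide region within 100 kb became 23.6% within 50 kb, 53.7% within 200 kb and 25.9% over 800 bp. The median of 42 others within 500 kb became 23 within 250 kb, 80 within 1000 kb, 21 counting regions of 500 bp or more and 36 joined within 200 bp. Only 10 of the 20 alternatives had a comparison class and so a direction that could reverse. In all 10 of these, wide regions lay above those of 500 to 700 bp. Joined within 200 bp, chromosome 6 and not chromosome 16 was lowest, and chromosome 19 exceeded it 1.55 times. A pair of alternatives, leaving out close neighbours and the joined local density, were added after seeing the data. Beyond other limits and distances, the cause of these shifts was not tested. Gene starts and motifs were not run, since no mm9 genes or genome were used. No paired analysis was possible because only a single library was analysed. How many weaker regions the unknown depth left out or narrowed cannot be said.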
